A study of Mus musculus with 136 samples.

Results

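The genes examined were the 4 hexokinases Hk1, Hk2, Hk3 and Hkdc1, taken as the rows of the count table that carry these gene symbols, out of 47643 genes in all. They were followed in 66 concepti of the NOD mouse, a strain in which females become diabetic spontaneously, each collected at E8.5 with the embryo and the visceral yolk sac as separate libraries. Normal pregnancies (dams at 105 to 164 mg/dl blood glucose) were compared with diabetic pregnancies (423 to 595 mg/dl, and 1 litter given as above the scale). The 8 groups were embryos and yolk sacs from each kind of pregnancy with 5-6 somite pairs (n = 17 in each group) or 7-9 somite pairs (n = 16). All dams were NOD mice on a chow diet, diabetic females were mated to normoglycemic males, and no allele or agent was introduced, so that high glucose cannot be told apart from other features of diabetic dams. The diabetic concepti came from 12 litters and the normal ones from 10, as read from the shared start of the library titles, and 1 diabetic litter gave 7 of the 16 later diabetic concepti. Each yolk sac takes its stage from the embryo of the same title.

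Hexokinases phosphorylate glucose to glucose 6-phosphate, which keeps the sugar inside the cell and commits it to glycolysis, the pentose phosphate pathway, glycogen or the hexosamine pathway. Hk1 and Hk2 bind glucose tightly and can dock on the outer mitochondrial membrane. Hk1 is the form of most adult tissues, whereas Hk2 is known from muscle, fat, embryos and tumours. Hk3 is a form of white blood cells and is inhibited by high glucose. Hkdc1, the most recently described member, lies beside Hk1 on the chromosome and is known from gut, liver and other epithelia.

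Libraries were made with QuantSeq 3′ FWD, in which 1 count stands for 1 molecule read at its 3′ end, so that counts of different genes are not scaled by transcript length. The libraries compared held 1017901 to 5658850 counts, and a normalized count is a count divided by the DESeq2 size factor of its library. The 10 visceral endoderm markers summed to between 10372 and 53508 normalized counts in yolk sacs and to between 96.3 and 3362 in embryos, and the 6 neural and somite markers to between 621 and 1296 in embryos and to between 2.56 and 60.5 in yolk sacs. In 2 concepti (D28M27C, diabetic at 5-6 somite pairs, and N28M07E, normal at 7-9) the embryo and the yolk sac carried opposite sex labels, which the counts bore out in all libraries, so that these pairs cannot be 1 conceptus and the stage of their yolk sacs is in doubt. A further 4 libraries stood apart, with correlations of 0.842 to 0.912 with the mean of the rest of their group against 0.947 or more for the other libraries. They were the embryo and yolk sac of D28M36C and the yolk sacs D28M02G and N28M06A. Results that change without these libraries are given both ways.

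All 4 genes lie on the minus strand. On the GRCm38 build Hk2 spans chr6:82725025-82774454, Hk1 spans chr10:62268855-62379908, Hkdc1 spans chr10:62383137-62422491 and Hk3 spans chr13:55005985-55021385. Hk1 and Hkdc1 follow each other with a gap of 3228 bases. Antisense genes lie inside Hk1 (Hk1os, 23112 bases of overlap) and Hk2 (Gm17034, 3007 bases), and the end of Hk3 meets that of Unc5a over 34 bases. The strand setting of the counting is not given in the sources used here, so that reads from these antisense genes cannot be told apart from those of Hk1 and Hk2 where they overlap.

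The promoters of Hk2 and Hkdc1 are shown because these genes had the opposite distribution between the tissues. RefSeq windows (GRCm38.p6) run from 250 bases before to 50 bases after the start of transcription and were found for 4 of 4 members. Capitals mark matches, on either strand, to the core of hypoxia response elements, ACGTG, to the E-box CACGTG, which contains that core, to the GC box GGGCGG, to the CCAAT box, or to the TATA box with the letters TATAAA. The windows are chr6:82774405-82774704 for Hk2 and chr10:62422408-62422707 for Hkdc1, both read 5′ to 3′ on the minus strand.
Hk2: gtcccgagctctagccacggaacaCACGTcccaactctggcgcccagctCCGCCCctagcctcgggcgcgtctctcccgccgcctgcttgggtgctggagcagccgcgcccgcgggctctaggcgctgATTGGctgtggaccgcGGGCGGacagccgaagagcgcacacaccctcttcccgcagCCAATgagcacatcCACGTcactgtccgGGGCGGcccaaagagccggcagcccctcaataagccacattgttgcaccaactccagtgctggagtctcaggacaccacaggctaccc
Hkdc1: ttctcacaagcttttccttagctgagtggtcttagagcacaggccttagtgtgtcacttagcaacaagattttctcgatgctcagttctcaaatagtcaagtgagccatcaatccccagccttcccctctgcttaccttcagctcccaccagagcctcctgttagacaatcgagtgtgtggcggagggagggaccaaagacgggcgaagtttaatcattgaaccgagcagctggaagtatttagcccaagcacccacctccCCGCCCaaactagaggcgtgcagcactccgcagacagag
The Hk2 window holds 2 matches to ACGTG with their first base at -226 and -52, 3 to GGGCGG at -201, -106 and -38, and 2 to CCAAT at -122 and -66, where -1 is the last base before the start. The Hkdc1 window holds a single match, to GGGCGG at 12 within the transcript. Of 32851 windows of this length, 19.6% hold ACGTG, 35.7% GGGCGG and 37.4% CCAAT, while CACGTG (7.15%) and TATAAA (13.6%) were in neither of the windows shown. The Hk2 window is 67.3% G and C with 25 CpG dinucleotides, against 52.3% and 9 for Hkdc1 and medians of 52.7% and 7 over all windows. Hk1 has a pair of annotated starts, and only the window of the inner start holds ACGTG, with 2 matches. The Hk3 window holds 1.

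Hk2 was the most abundant hexokinase in both tissues. In embryos its mean level was 607 ± 113 normalized counts (SD, n = 17) in normal and 573 ± 139 (n = 17) in diabetic pregnancies at 5-6 somite pairs, and 628 ± 90.9 (n = 16) and 581 ± 156 (n = 16) at 7-9. In yolk sacs the means were 231 ± 78.0 and 272 ± 73.5 with 5-6 pairs, then 192 ± 29.4 and 212 ± 82.9 with 7-9. Neighbours in this order differed by less than their SDs within each tissue, and the step lay between the lowest embryo mean and the highest yolk sac mean.

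Hk1, the housekeeping form, was found at similar low levels in every group. Its highest mean was 54.2 ± 25.6 in normal yolk sacs at 5-6 somite pairs, followed by 50.8 ± 15.5 in diabetic embryos at 7-9. The lowest was 34.2 ± 14.5 in diabetic embryos at 5-6, and the other 5 groups lay between 38.9 and 46.9. No neighbours in this order were separated by more than their SDs.

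Hkdc1 was low in embryos and readily counted in yolk sacs. The embryo means were 6.63 ± 3.01 and 8.15 ± 2.92 at 5-6 somite pairs (normal and diabetic) and 7.47 ± 3.601 and 9.27 ± 4.48 at 7-9, from 2 to 33 molecules per library. The yolk sac means were 87.4 ± 20.9 and 94.5 ± 30.4 with 5-6 pairs, then 90.1 ± 19.3 and 127 ± 27.9 with 7-9, from 34 to 238 molecules per library.

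Hk3 was close to absent from these counts. Over all libraries compared, a single molecule was counted in 1 later diabetic embryo, which is among the libraries that stood apart, and 1 in a later normal yolk sac. In the other 6 groups no molecule was counted, which allows up to 3 counts per group, or 0.0631 to 0.0842 CPM (counts scaled by the total, here the summed total of the group). These limits cover counting error only. Of the 8 myeloid markers, 6 had a mean below 1 normalized count in each embryo group and 3 to 4 in the yolk sac groups, with sums over the list of 2.02 to 20.4 normalized counts in embryos and 4.14 to 34.2 in yolk sacs, and Itgam was at 0 in later diabetic yolk sacs.

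**Figure D1:**
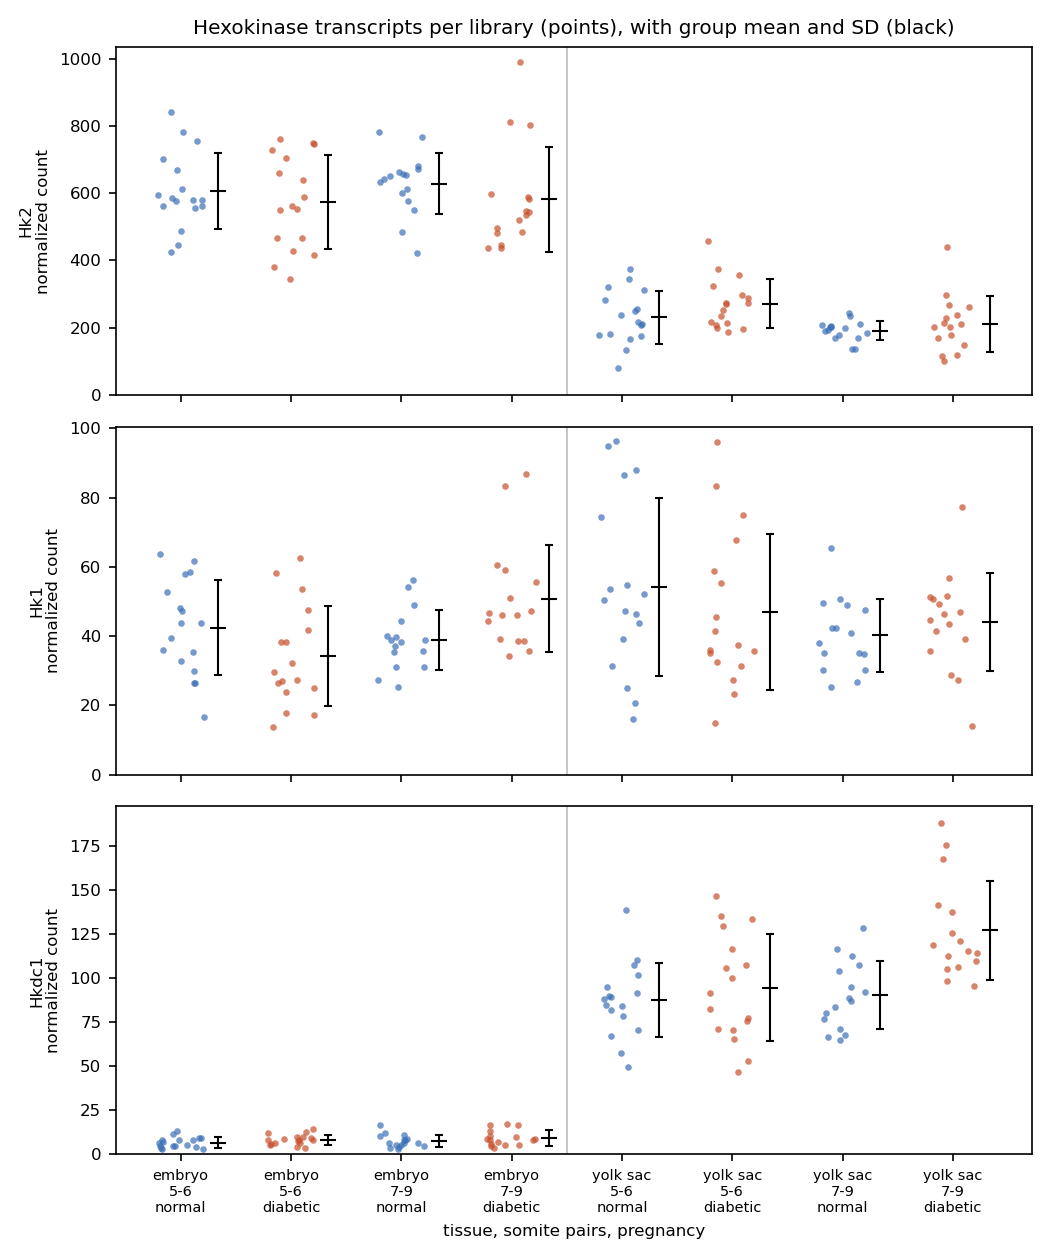
Normalized counts of Hk2, Hk1 and Hkdc1 on linear axes, with 1 point per library (blue normal, red diabetic pregnancy) and the mean with its SD in black, for 5-6 and 7-9 somite pairs. Hk2 points sit higher in embryos (344 to 989) than in most yolk sacs (80.9 to 457), Hkdc1 points sit at 2.78 to 17.02 in embryos and 46.4 to 188 in yolk sacs, and Hk1 has overlapping ranges in both (13.9 to 86.8 and 13.9 to 96.4).

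The makeup of the hexokinase transcripts differed accordingly. In embryos Hk2 made up 86.7 to 96.0% of the summed hexokinase counts, Hk1 3.25 to 12.3% and Hkdc1 0.442 to 2.97%, and the order Hk2, Hk1, Hkdc1 held in 66 of 66 libraries. In yolk sacs Hk2 made up 36.2 to 79.0%, Hkdc1 8.03 to 50.4% and Hk1 3.22 to 22.9%. Hkdc1 exceeded Hk1 in 60 of 66 yolk sacs and Hk2 exceeded Hkdc1 in 63. The median Hkdc1 share was 25.3% and 25.6% at 5-6 somite pairs (normal and diabetic), and 28.1% and 32.5% at 7-9. The sum of all hexokinase counts averaged 647 ± 134 normalized counts in 66 embryos and 373 ± 88.0 in 66 yolk sacs. These shares are a description and were not tested.

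**Figure D2:**
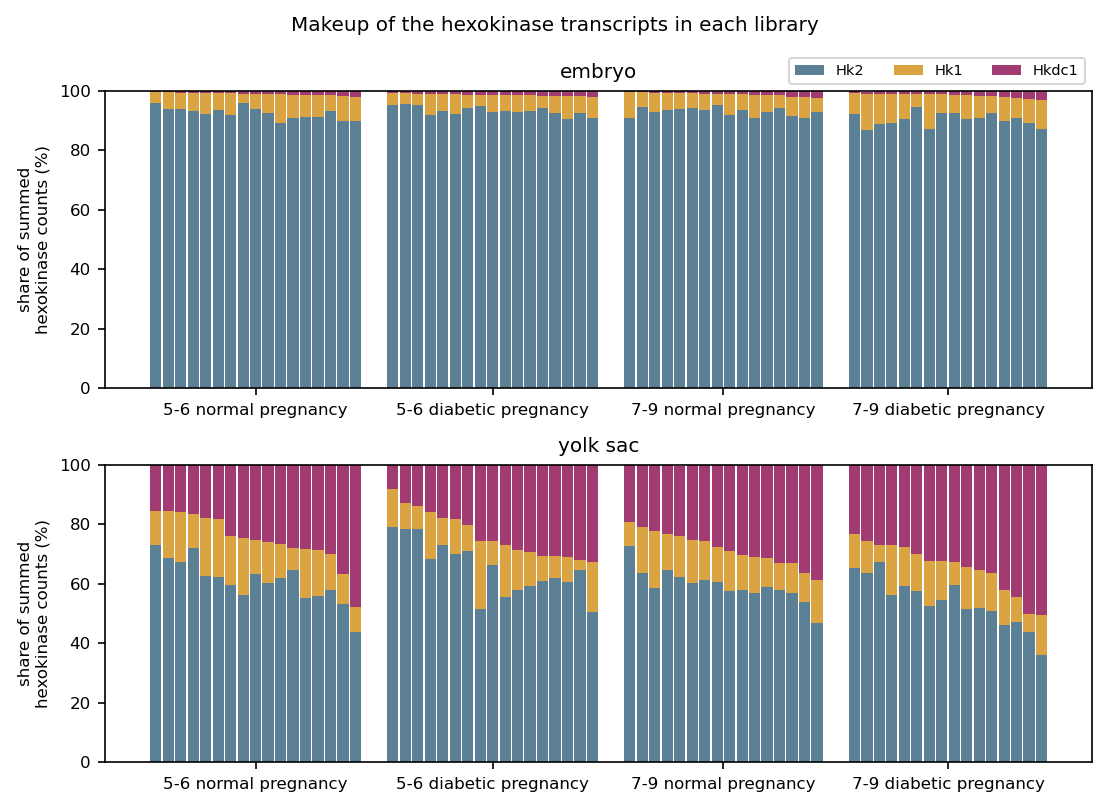
Share (%) of Hk2, Hk1 and Hkdc1 in the summed hexokinase counts of each library, 1 bar per library ordered by the Hkdc1 share within its group. Embryo bars are almost wholly Hk2, while Hkdc1 takes 8.03 to 50.4% of the yolk sac bars.

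Repeat libraries of 2 concepti give the technical error. In CPM, the repeat gave 0.935 to 0.984 of the original for Hk2 and 0.921 to 1.32 for Hk1. For Hkdc1 the ratio was 0.952 and 0.988 in the yolk sacs and 0.724 and 0.745 in the embryos, where 15 to 33 molecules were counted.

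The comparison of the tissues asks which hexokinase each uses. Hk2 was lower in yolk sac than in embryo in all 4 comparisons. In normal pregnancies the embryos ranged from 426 to 841 and the yolk sacs from 80.9 to 374 at 5-6 somite pairs, and from 422 to 782 and 136 to 243 at 7-9, without overlap. In diabetic pregnancies the ranges were 344 to 761 and 188 to 457 with 5-6 pairs, then 437 to 989 and 100.4 to 440.3 with 7-9, and these overlap. The embryo was higher in 66 of 66 pairs matched by title, including the 2 of opposite sex labels. The log2 fold changes of yolk sac against embryo were -1.36 (SE 0.14, adjusted p = 1.35e-11) and -1.71 (SE 0.08, adjusted p = 3.54e-21) in normal pregnancies at the earlier and later stage, and -0.997 (SE 0.12, adjusted p = 2.08e-09) and -1.45 (SE 0.16, adjusted p = 1.26e-10) in diabetic ones. Hk2 was thus 1.996-fold to 3.26-fold higher in embryos.

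Hkdc1 had the opposite distribution, and its ranges in embryo and yolk sac did not overlap in any group. The highest of 66 embryos stood at 17.02 and the lowest of 66 yolk sacs at 46.4 normalized counts. The log2 fold changes were 3.65 (SE 0.16, adjusted p = 1.47e-22) and 3.56 (SE 0.16, adjusted p = 8.43e-23) in normal pregnancies at the earlier and later stage, and 3.58 (SE 0.17, adjusted p = 2.04e-21) and 3.77 (SE 0.17, adjusted p = 2.24e-21) in diabetic ones. On the linear scale Hkdc1 was 11.8-fold to 13.6-fold higher in yolk sacs. The yolk sac was higher in 66 of 66 pairs matched by title, including the 2 of opposite sex labels.

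Hk1 passed the test only in diabetic pregnancies at 5-6 somite pairs, where it was higher in yolk sac by 0.53 on the log2 scale (SE 0.21, adjusted p = 0.0208). Without the libraries that stood apart this value was 0.44 (adjusted p = 0.0587), while the normal comparison at that stage gave 0.39 (SE 0.19, adjusted p = 0.0684) with all libraries and 0.47 (adjusted p = 0.0187) without them. The later comparisons gave 0.05 (SE 0.12) and -0.20 (SE 0.15). Across all genes tested, 70.6% and 75.2% passed in the normal comparisons at the earlier and later stage and 70.9% and 72.8% in the diabetic ones.

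**Figure D3:**
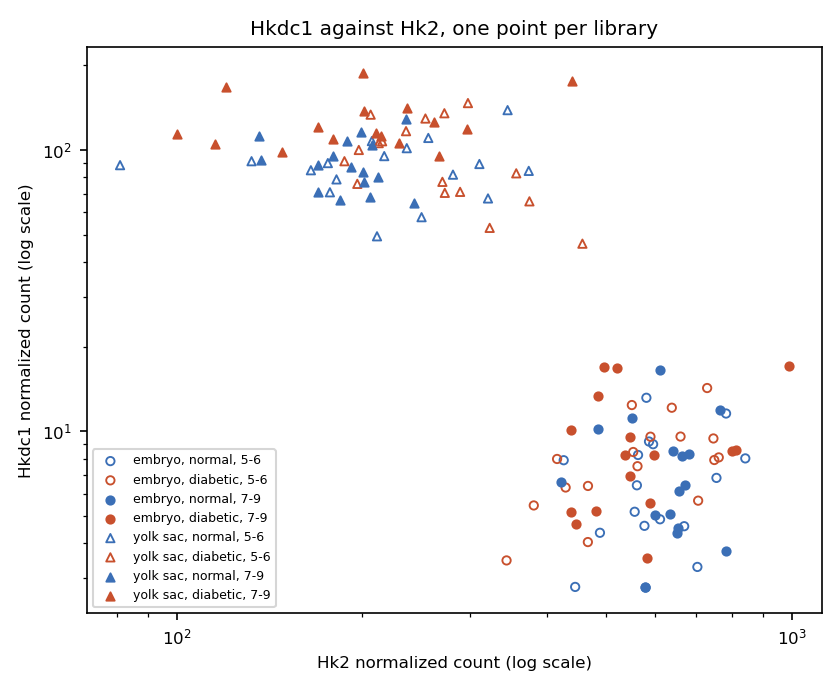
Normalized counts of Hkdc1 against Hk2 on log axes, 1 point per library (circles embryos, triangles yolk sacs, blue normal, red diabetic, open 5-6 and filled 7-9 somite pairs). Embryos and yolk sacs form separate clouds that the Hkdc1 axis divides without overlap.

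The low Hkdc1 counts in embryos were set beside the markers of visceral endoderm, the epithelium that covers the yolk sac. The mean Hkdc1 level in embryos was 7.30 to 8.62% of that in yolk sacs. For the 10 markers the same figure was lower, at 0.687 to 5.18%, with medians of 1.67 to 3.44% by group. Within later diabetic embryos (n = 16) Hkdc1 followed the mean log2 level of these markers, with Pearson's r = 0.709 (permutation p = 0.00274, adjusted p = 0.0164 over 12 relations) and Spearman's rho = 0.744 (permutation p = 0.00161, adjusted p = 0.00966). When the 2 embryos with the most extreme marker means were removed r was 0.542, and among littermates it was 0.700. In the other 3 embryo groups r was -0.04, 0.349 and 0.428, none of which passed (permutation p = 0.863, 0.169 and 0.0982). The permutations moved libraries across litters and so treat littermates as independent. Markers of other cell types were not compared with Hkdc1 in embryos. In whole tissues, fewer cells of a type cannot be told apart from less RNA in each cell.

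Maternal diabetes was tested within each tissue and stage, and none of the members passed over all genes. At 5-6 somite pairs, 1.46% of genes passed in embryos and 0.0% in yolk sacs, and at 7-9 somite pairs 9.09% and 0.0194%. These fits treat littermates as independent. The 161 and 966 genes called in embryos at the earlier and later stage became 4 and 314 with the litter as random block, and 0 and 8 from litter sums. Unadjusted p-values under 0.05 were found for 863 of 10250 genes in the earlier and 1122 of 10317 in the later yolk sacs. Hk2 differed little, with log2 fold changes of diabetic against normal of -0.08 (95% interval -0.29 to 0.13) and -0.11 (-0.31 to 0.08) in embryos at the earlier and later stage, and 0.24 (-0.06 to 0.54) and 0.14 (-0.14 to 0.42) in yolk sacs.

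Hkdc1 in later yolk sacs had the lowest unadjusted p among the members and did not pass over all genes. The 16 diabetic yolk sacs ranged from 95.4 to 188 normalized counts with a median of 117, and the 16 normal ones from 64.8 to 128 with a median of 87.7. The upper part of the normal range overlaps the lower part of the diabetic range. The log2 fold change was 0.49 (SE 0.11, p = 5.38e-05, adjusted p = 0.0720), or 1.41-fold. It passed with DESeq2 (adjusted p = 0.0167) and without the filter on low counts (adjusted p = 0.0442). With the litter as a random block the adjusted p was 0.238, with the title number as a covariate 0.205, and from litter sums of counts 0.716. Leaving out each litter in turn gave 0.44 to 0.61, with adjusted p-values between 0.0385 and 0.232. Without the discordant conceptus N28M07E it was 0.48 (adjusted p = 0.152).

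By litter, the 6 diabetic litters had means of 6.82 to 7.46 and the 7 normal litters of 6.11 to 6.80 on the scale of log2(normalized count + 1), without overlap. The difference was 0.61 (exact permutation test over 1716 splits, two-sided p = 0.00117, unadjusted, 1 of 12 such tests). The p was the same without N28M07E and without the libraries that stood apart. Markers of the maternal decidua moved alongside, with sums of 33.1 to 777 (median 117) in these diabetic and 34.6 to 119 (median 64.6) in these normal yolk sacs, although 0 of the 2 markers tested passed. Within the diabetic group (n = 16) Hkdc1 did not follow the mean log2 level of the 4 decidua markers (r = -0.30, permutation p = 0.253, rho = -0.19, permutation p = 0.469). At 5-6 somite pairs the Hkdc1 difference in yolk sacs was 0.11 (SE 0.14, adjusted p = 0.837), while the decidua sums had medians of 89.5 (diabetic) and 56.55 (normal).

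In embryos Hkdc1 fell below the filter on low counts with all libraries in the fit. Without the filter the log2 fold change was 0.22 (SE 0.21, adjusted p = 0.574) at 5-6 and 0.29 (SE 0.24, adjusted p = 0.477) at 7-9 somite pairs, and from litter sums 0.31 (SE 0.19, adjusted p = 0.662) and 0.30 (SE 0.31, adjusted p = 0.653). It also passed the filter when litter N24M21 was left out at the earlier stage (0.21, adjusted p = 0.544), and no fit called it. By litter means at 5-6 somite pairs, 9 of 9 diabetic litters lay above the median of the 10 normal litters, with a difference of 0.34 (exact permutation test over 92378 splits, p = 0.0330, unadjusted). At 7-9 somite pairs 4 of 6 did, with a difference of 0.30 (exact permutation p = 0.358).

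**Figure D4:**
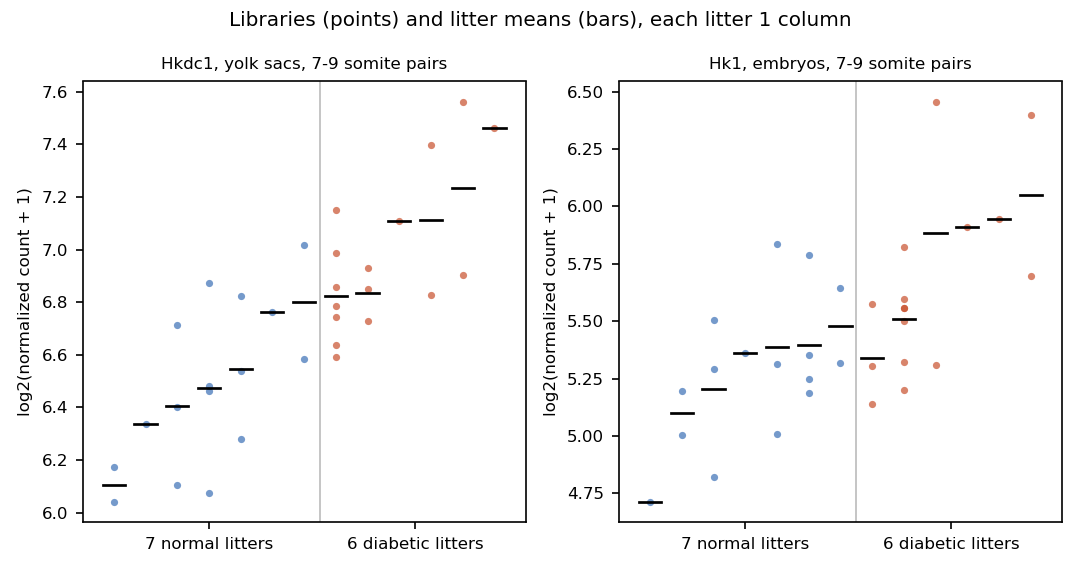
Values of log2(normalized count + 1) for Hkdc1 in yolk sacs and Hk1 in embryos at 7-9 somite pairs, with 1 column per litter ordered by its mean (bar) within normal (blue) and diabetic (red) litters. All 6 diabetic litter means of Hkdc1 sit above the highest normal one (6.80), and the Hk1 means overlap.

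Hk1 in embryos had fold changes of opposite sign at the stages, and neither passed over all genes. At 5-6 somite pairs the diabetic embryos ranged from 13.9 to 62.5 normalized counts (median 29.8) and the normal ones from 16.6 to 63.8 (median 43.7), with a log2 fold change of -0.30 (SE 0.17, adjusted p = 0.317). At 7-9 somite pairs the diabetic embryos ranged from 34.2 to 86.8 (median 46.4) and the normal ones from 25.2 to 56.1 (median 38.5), with 0.37 (SE 0.12, adjusted p = 0.0551). The groups overlap at both stages. The later difference passed with DESeq2 (adjusted p = 0.0416) and with the title number as a covariate (adjusted p = 0.0333). It did not pass with the litter as random block (0.38, adjusted p = 0.109), from litter sums (0.48, adjusted p = 0.119), without the filter (0.36, adjusted p = 0.0926), without the discordant conceptus (0.35, adjusted p = 0.0862) or without the library that stood apart (0.31, adjusted p = 0.0982). With each litter left out it was 0.31 to 0.49 (adjusted p = 0.0416 to 0.126) and passed in 2 of 13 fits. Litter means differed by 0.54 (exact permutation p = 0.00583, unadjusted, higher than the normal median in 5 of 6 diabetic litters). In yolk sacs Hk1 differed by -0.21 (SE 0.22) and 0.11 (SE 0.15).

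The 5 heart markers, taken as a sum, moved with Hk1. Their summed level was 1638 to 2911 normalized counts (median 2086) in later diabetic and 1098 to 2018 (median 1562) in later normal embryos. In the fit that treats littermates as independent, 2 of the 5, Actc1 and Myl7, passed as higher by 0.39 and 0.69. At the earlier stage the sums were 137 to 1901 (median 1049) and 653 to 2105 (median 1405). Within earlier diabetic embryos (n = 17) Hk1 followed the mean log2 level of the 5 markers, with r = 0.863 (permutation p = 1e-05, the smallest that the resampling can give, adjusted p = 0.00012 over 12 relations), rho = 0.855 (permutation p = 3e-05), r = 0.831 without the 2 farthest embryos and r = 0.931 among littermates. In the other embryo groups r was 0.02 and 0.305 (normal, earlier and later) and 0.521 (later diabetic), and none passed after adjustment (adjusted permutation p = 0.942, 0.434 and 0.154). Among littermates r was -0.03, 0.754 and 0.524 in these groups, and the groups were not tested against each other. These permutations, too, moved libraries across litters. The part of heart tissue in the Hk1 difference was not tested.

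Between the stages, 1 member was called as higher in each of the diabetic tissues. Hk1 and Hk2 were tested in embryos, and Hk1, Hk2 and Hkdc1 in yolk sacs. Of all genes, 15.1% rose in diabetic embryos and 18% in diabetic yolk sacs. With so few members tested, these calls say nothing about the members as a set. Hk1 was higher in later than in earlier diabetic embryos by 0.56 (SE 0.17, adjusted p = 0.0124), against 29.2% of all genes called there, and stayed called with each of the 12 litters left out. In normal embryos it was -0.14 (SE 0.14, adjusted p = 0.530), with 15.1% of genes called. Hkdc1 was higher in later than in earlier diabetic yolk sacs by 0.42 (SE 0.13, adjusted p = 0.0118), where 33.7% of genes passed, and lost the call in 1 of 12 fits, without litter D28M53 (0.32, adjusted p = 0.0794). In normal yolk sacs it was 0.04 (SE 0.11, adjusted p = 0.884), with 7.84% of genes called. By somite number, mean Hkdc1 in diabetic yolk sacs was 83.9 ± 25.2 with 5 pairs (n = 13), 129 ± 16.4 with 6 (n = 4), 128 ± 32.1 with 7 (n = 4), 124 ± 28.9 with 8 (n = 9) and 135 ± 28.8 with 9 (n = 3). The 4 with 6 pairs came from 3 litters. In normal yolk sacs the means in this order were 87.2 ± 23.7 (n = 11), 87.7 ± 16.6 (n = 6), 81.9 ± 23.1 (n = 7), 96.8 ± 13.7 (n = 4) and 96.2 ± 15.7 (n = 5). Single somite numbers were not compared by a test.

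With all libraries and no litter term, Hk2 did not pass between stages in any group. In yolk sacs it was -0.37 (SE 0.15, adjusted p = 0.0582) in diabetic and -0.28 (SE 0.14, adjusted p = 0.208) in normal yolk sacs, and passed without the libraries that stood apart (-0.39, adjusted p = 0.0418, and -0.33, adjusted p = 0.0450). With the litter as random block it passed in diabetic (-0.42, adjusted p = 0.0380) and not in normal yolk sacs (-0.19, adjusted p = 0.428). Hk1 in normal yolk sacs was at -0.45 (SE 0.19, adjusted p = 0.127) with all libraries and -0.51 (adjusted p = 0.0355) without N28M06A. In embryos Hk2 was 0.05 (SE 0.08) in normal and 0.04 (SE 0.12) in diabetic pregnancies.

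**Figure D5:**
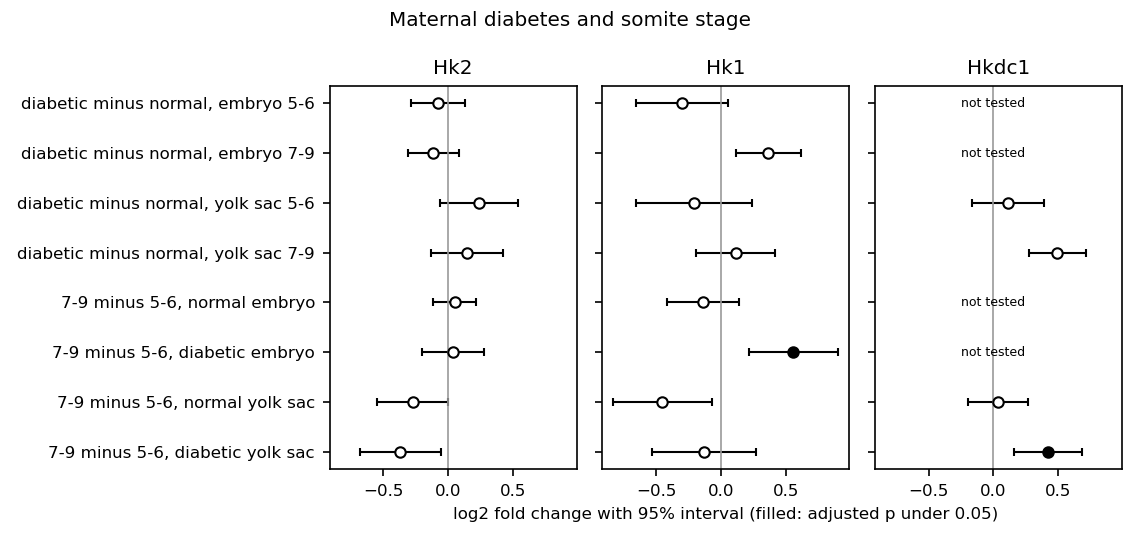
Log2 fold changes of Hk2, Hk1 and Hkdc1 with 95% intervals for diabetic minus normal pregnancy and for 7-9 minus 5-6 somite pairs, filled where the adjusted p is under 0.05. The filled points are Hk1 in diabetic embryos (0.56) and Hkdc1 in diabetic yolk sacs (0.42), both between stages.

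Interaction terms test whether these differences themselves differ. The fit of stage by diabetes in embryos held no term for somite number within the stages, and 8.7% of genes passed. For Hk1 in embryos the change with stage was larger in diabetic than in normal pregnancies by 0.68 on the log2 scale (SE 0.22, adjusted p = 0.0419). This call was lost without the filter on low counts (adjusted p = 0.0730), without the discordant concepti (0.64, adjusted p = 0.0647), without the library that stood apart (0.62, adjusted p = 0.0662), and in 12 of 22 fits that left out a litter (0.55 to 0.76). The corresponding Hkdc1 term in yolk sacs was 0.38 (SE 0.18, p = 0.0326, adjusted p = 0.850), where 0.0% of genes passed and 634 of 10857 had an unadjusted p under 0.05. No member passed for the effect of diabetes between tissues, neither at 5-6 somite pairs (0.0% of genes, 895 of 11677 at an unadjusted p under 0.05) nor at 7-9 (0.389%), where the Hkdc1 term was 0.21 (SE 0.25, adjusted p = 0.689). The same held for the effect of stage between tissues, with 0.0435% of genes passing in normal and 1.81% in diabetic pregnancies. There the Hk2 terms were -0.34 (SE 0.16) and -0.40 (SE 0.20).

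Of the 18 enzymes below hexokinase in glycolysis, from glucose 6-phosphate isomerase to lactate dehydrogenase, 15 to 17 were testable between the tissues. In yolk sacs 11 to 12 were lower and 1 to 3 higher than in embryos, with medians of -0.43 to -0.75 against -0.00 to -0.04 over all genes. Of all genes tested, 34.7 to 39.5% were lower and 35.1 to 36.2% higher in yolk sac. In later normal concepti the muscle and growth form of pyruvate kinase Pkm was lower in yolk sac, with a log2 fold change of -1.15 (SE 0.08), and so was the liver form of phosphofructokinase Pfkl at -1.35 (SE 0.10). Pklr, the pyruvate kinase of liver and red cells, was higher at 4.90 (SE 0.36). With diabetes, 6 of 16 rose in later embryos (median 0.23, all genes -0.01), where 5.2% of all genes rose, among them Gpi1, which takes the product of hexokinase onward, at 0.51 (SE 0.10, adjusted p = 0.00266), and 0 of 15 to 17 passed in the other 3 groups. Between stages, 9 of 16 rose in diabetic embryos, where 15.1% of all genes rose, and 2 of 16 in normal ones, where 6.13% did. The counts were not tested against each other, and those with diabetes or stage treat littermates as independent. Litter-level values of these genes are not given.

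The 13 other enzymes and carriers of glucose 6-phosphate were mixed, with 5 to 6 of the 12 tested higher and 2 to 5 lower in yolk sac, beside 35.1 to 36.2% of all genes higher and 34.7 to 39.5% lower. Slc37a4, which carries glucose 6-phosphate into the endoplasmic reticulum for release as glucose, was higher in yolk sac at 1.69 (SE 0.12) in later normal concepti, and Pgd of the pentose phosphate pathway was lower at -0.64 (SE 0.07). With diabetes Gpi1, which is on both lists, and Gyg rose in later embryos and Pgd fell by 0.33 on the log2 scale in earlier ones. Of all genes, 5.2% rose in the later and 0.872% fell in the earlier embryos. Among the 3 VDAC channels, on which mitochondrial hexokinases dock, Vdac1 and Vdac2 were higher in yolk sac in all 4 comparisons, at 1.15 (SE 0.07) and 0.69 (SE 0.07) in later normal concepti. Again 35.1 to 36.2% of all genes were higher in yolk sac. Vdac3 rose in later diabetic embryos at 0.42 (SE 0.12), where 5.2% of all genes rose. Of 7 other sugar kinases 6 were tested, and 4 to 5 were higher in yolk sac and none lower, beside the same shares of all genes between the tissues. Nagk, which phosphorylates N-acetylglucosamine, was at 1.39 (SE 0.12) and the fructose kinase Khk at 1.37 (SE 0.18) in later normal concepti. Khk was also higher in later diabetic embryos at 0.57 (SE 0.17, adjusted p = 0.0312). The calls with diabetes on these lists come from the fits that treat littermates as independent.

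The genes most like each member were found by Pearson's r over the 66 libraries of a tissue, after removing group means. In embryos the genes closest to Hk1 included Cavin1 (0.787), Ctdspl (0.744), Mtch1 (0.738) and the cardiac myosin-binding protein Mybpc3 (0.737). Hk2 was closest to Bcorl1 (0.778), Trerf1 (0.732), Foxo1 (0.721), Camkk2 (0.717) and Foxo3 (0.702). In yolk sacs Hk1 led with AU020206 (0.804), Wbp1l (0.785), Fasn (0.777), Ubr4 (0.759) and Dicer1 (0.749), and Hk2 with Igsf3 (0.747), Dlc1 (0.738), Pfkfb3 (0.731), an enzyme that makes the activator of phosphofructokinase, Sh3pxd2a (0.706) and Ago2 (0.693). Hkdc1 in yolk sacs was closest to the collagen Col3a1 (0.725), Colec10 (0.673), the red cell anion exchanger Slc4a1 (0.672), Lum (0.672) and Clec14a (0.662). Among the members, Hk1 and Hk2 had r = 0.573 in embryos and 0.515 in yolk sacs, whereas Hkdc1 had 0.0107 with Hk1 and -0.10 with Hk2 in yolk sacs. These correlations share libraries, litters and depth and are given as a description.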

How the data were processed

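The authors sequenced QuantSeq 3′ FWD libraries that carry molecular identifiers, aligned the reads with STAR, collapsed duplicates of a molecule and used HTSeq to count genes; the submitters' processing notes name the build mm10, and versions and annotation are not given in the sources used here. The deposited values are counts of molecules per gene, unnormalized, for 136 libraries, of which 4 repeats were left out. Groups follow the labels. The members and gene lists were chosen with earlier results of these data known.

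Each comparison was fitted over all genes that passed filterByExpr (minimum count 10) with edgeR 4.0.16 (glmQLFit, glmQLFTest, TMM) in R 4.3.3, and an adjusted p (Benjamini-Hochberg) under 0.05 was a call. Standard errors are the log2 fold change over the root of its F statistic, and intervals are 95%. Normalized counts use DESeq2 1.42.0 size factors over all libraries compared, with a pseudocount of 1 for log2. Litter means were compared by exact permutation in Python 3.11.15 with scipy 1.17.1. Relations with marker means were tested by permuting libraries at random within a group, across litters. Alternatives were DESeq2's Wald test, RLE factors, no filter, somite or title number as a covariate, a random litter effect (limma 3.58.1), litter sums of counts, the conceptus as a block, and each litter left out. Fits without doubted libraries, and those leaving out litters in the interaction, were added after seeing the data. Replicates are separate concepti, but littermates share a dam, and p-values without the litter treat them as independent. Embryo and yolk sac are paired by their shared titles, and their deviations from group means correlated with medians of 0.0471 to 0.157. Named genes were the members, the fixed lists with examples, and per tissue the 5 genes most like each member; a few of these genes are not reported here. Genomic positions are from GENCODE M21 (GRCm38, the assembly of mm10). The fits were tested on simulated data. The simulated counts had a fixed dispersion and no litter effect, so that they cannot show how the fits behave with littermates.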

Additional observations from a re-analysis of the deposited data

Results flagged for a closer look

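Hk1 is set apart because its change with somite stage differed between diabetic and normal embryos by a test of the difference itself, with an interaction term of 0.68 on the log2 scale (SE 0.22, adjusted p = 0.0419, edgeR's quasi-likelihood test). From 5-6 to 7-9 somite pairs the change was 0.56 in diabetic and -0.14 in normal embryos. Of the 5 heart markers, Actc1 (0.81, adjusted p = 0.0438) and Myl7 (0.91, adjusted p = 0.0204) had terms of the same sign that passed. Of all genes, 8.7% passed there. Terms of the remaining heart markers are not given here, and the part of heart tissue in the Hk1 term was not tested. The terms of Actc1 and Myl7, like that of Hk1, come from a fit that treats littermates as independent.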

How the results depend on the processing

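Of the log2 fold changes of members under the alternatives, 587 kept their direction and their side of the threshold, 15 changed sign, 16 passed only under the alternative and 17 passed only in the reported fit. The 587 include 10 litter permutations, which carry no call and were counted by direction alone. No call of Hk2 or Hkdc1 between tissues was lost under any alternative run there, and the conceptus as a replicate block changed no call: with this pairing 3 members passed between tissues in diabetic concepti at 5-6 somite pairs and 2 in each of the other 3 comparisons, and 0 in the interactions with tissue. 1 member passed in later embryos for diabetes with DESeq2 and with the title number as a covariate, and 1 in later yolk sacs with DESeq2 and without the filter, each against 0. Leaving out litters gave 0 to 1 in both. For the stage by diabetes term in embryos, 0 members passed without the filter, without the discordant concepti or without the libraries that stood apart, against 1, and leaving out litters gave 0 to 1. Between stages in yolk sacs, 2 members (Hkdc1 and Hk2) passed in diabetic ones with the litter as a random block or without the libraries that stood apart, against 1 (0 to 2 over litters), and 2 (Hk1 and Hk2) in normal ones without those libraries, against 0 (0 to 2). Signs changed only for values that did not pass: Hk1, diabetes in later yolk sacs, -0.060 to 0.23 over litters, with the change of sign without D24M15; Hk1, stage in normal embryos, -0.19 to 0.021; Hk1, diabetes between tissues at 5-6 somite pairs, -0.020 without the libraries that stood apart; Hk2, diabetes in later yolk sacs, -0.044 with the title number; Hk2, stage by diabetes in embryos, 0.012 with the litter block and -0.094 to 0.047 over litters; Hk2, stage in diabetic embryos, -0.031 to 0.11; and Hkdc1, stage in normal yolk sacs, -0.024 to 0.11. The causes were not tested. Counts of Hkdc1 in embryos limit any statement on it there. No count of calls is given for litter permutations, whose p-values are not adjusted over all genes.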
